A study of Mus musculus with 2 samples.

Results

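The catenin system, represented by 8 genes, was followed in mouse bone marrow-derived macrophages: the catenins Ctnnd1 (p120 catenin), Ctnna1, Ctnnb1 and Jup, the cadherin Cdh1, and 3 genes of the complex that destroys beta-catenin, Apc, Axin1 and Gsk3b. The 8 were taken by symbol from a table of 34714 genes, and all 8 were found there. The set was chosen by these same FPKM values, in that Ctnnd1 was seen more than 3-fold higher with anti-CD40, so its difference is given as a description and supports nothing by itself. Against that threshold of 3-fold, Ctnnd1 lay inside at 3.60-fold and the next member, Ctnnb1, outside at 1.42-fold. Both groups were marrow cells of C57BL/6 mice cultured in macrophage colony-stimulating factor at 20 ng/mL, and they differed in a 24 h exposure to the CD40-activating antibody FGK45 or to IgG. No genetic modification is given for either group, and how many animals gave marrow is not given in the sources used here. With 1 library a group, differences could not be checked against replicates and no p-value was computed. "Higher" and "lower" compare 2 libraries and not the conditions.

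Catenins link cadherins, the adhesion receptors of cell contacts, to the inside of the cell. Beta-catenin binds the cadherin tail and alpha-catenin, which joins the complex to actin, while p120 catenin binds nearer to the membrane, keeps cadherins at the surface and also acts on the actin cytoskeleton. Beta-catenin outside the junctions is marked for degradation by a complex of Apc, Axin1, casein kinase 1 and glycogen synthase kinase 3, unless a Wnt signal stops it, in which case it enters the nucleus and acts with TCF and LEF factors. Macrophages in culture are single cells without an epithelial junctional belt, but they express several of these proteins.

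Values are FPKM, fragments scaled by transcript length and library size, and the difference is the log2 ratio of (FPKM + 1), anti-CD40 over IgG. A fold given for a gene is the ratio of the FPKM values themselves, while counts of genes past 1.5-fold or 2-fold are on the log2(FPKM + 1) scale, which is stricter for low genes. The steps in which low values rise gave 6.16 gigabases of aligned sequence with anti-CD40 and 5.58 with IgG. Intervals beside levels (exact Poisson) and folds (exact conditional binomial) are 95% intervals on approximate fragment numbers. They cover counting error only, not the spread between cultures. Of the 9591 genes that reached 1 FPKM in either library, 24 were higher by 2-fold or more in the anti-CD40 library and 30 were lower on the log2 scale, a split that became 13 and 54 after centring on the median, 16 and 48 after upper-quartile scaling, 30 and 24 after rescaling both to the mean of their sums, and 61 and 41 on a TPM-like scale, whose larger values give the pseudocount less weight. The median log2 ratio of the 9591 genes was 0.12, and 67.8% of them had a ratio above 0, so a small positive value is the usual one in this table.

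Ctnnd1 was the member that differed most. Its level was 7.23 FPKM in the anti-CD40 library (interval 6.76 to 7.73) and 2.01 FPKM in the IgG library (1.75 to 2.29). The levels in these 2 libraries did not overlap within counting error. The fold of 3.60 had an interval from 3.11 to 4.21, on about 869 and 218 fragments. On the log2 scale the difference was 1.45, rank 3 of 9591 genes, and by the ratio of FPKM values it was rank 2 of the 9101 genes that reached 1 FPKM in both. Of those 9101 genes, 4 reached 3-fold. Ctnnd1 was the 1 member at least 2-fold higher, out of 6 members that reached 1 FPKM, and 0 were 2-fold lower. Of all genes, 0.25% were called higher and 0.313% lower. Since the choice of Ctnnd1 used that difference, nothing is read from the comparison with these shares. With a pseudocount of 5 FPKM the log2 ratio of Ctnnd1 fell to 0.80, under 2-fold, and with 0.1 FPKM it was 1.80.

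**Figure D1:**
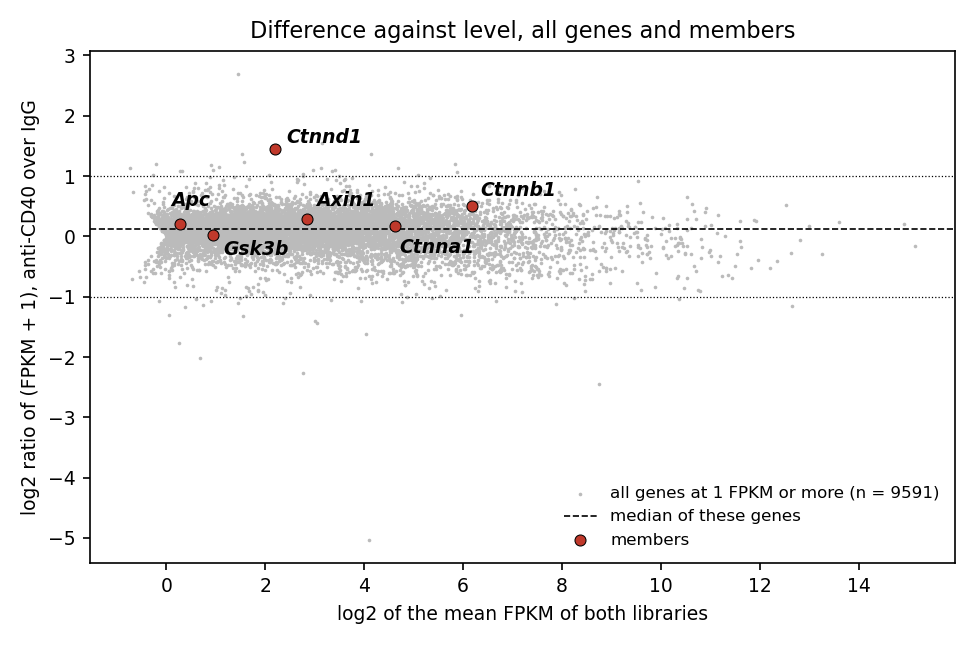
Log2 ratio of (FPKM + 1), anti-CD40 over IgG, against the log2 of the mean FPKM of both libraries. Each grey point is 1 of the 9591 genes that reached 1 FPKM, red points are the 6 members among them, the dashed line is the median of 0.12 and dotted lines mark 2-fold. Ctnnd1 lies at 1.45, apart from the body of genes at its level, and the other 5 members lie within it.

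Ctnnd1 lies on the minus strand of chromosome 2, from 84587096 to 84658977 in the RefSeq annotation of GRCm38.p6, with 24 RefSeq transcripts. RefSeq promoter windows were matched for 4 of the 8 members (Ctnnd1, Ctnnb1, Jup and Gsk3b), and windows of the 2 members with the largest differences are printed here, so that the start regions of the genes concerned can be seen. Ctnnd1 has windows for 2 start sites 8237 bases apart. Before the outer start, the 94 bases that separate it from the oppositely directed gene Btbd18 are shown (chr2:84658978-84659071, minus strand), and before the inner start the preceding 250 bases (chr2:84650741-84650990, minus strand). Ctnnb1 also has windows for 2 starts, which overlap, and the 250 bases before the outer one are shown (chr9:120933150-120933399, plus strand). Sequences run 5′ to 3′ and are from RefSeq, and capitals mark matches to a CCAAT box (CCAAT, or ATTGG on the opposite strand) or a TATA box (TATAAA).
Ctnnd1 outer start: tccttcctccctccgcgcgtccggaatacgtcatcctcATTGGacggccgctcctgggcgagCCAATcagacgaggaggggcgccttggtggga
Ctnnd1 inner start: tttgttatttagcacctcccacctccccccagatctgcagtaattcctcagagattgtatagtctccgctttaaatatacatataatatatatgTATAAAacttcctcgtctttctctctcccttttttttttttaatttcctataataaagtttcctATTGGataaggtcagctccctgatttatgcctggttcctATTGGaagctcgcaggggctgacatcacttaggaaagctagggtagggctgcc
Ctnnb1 outer start: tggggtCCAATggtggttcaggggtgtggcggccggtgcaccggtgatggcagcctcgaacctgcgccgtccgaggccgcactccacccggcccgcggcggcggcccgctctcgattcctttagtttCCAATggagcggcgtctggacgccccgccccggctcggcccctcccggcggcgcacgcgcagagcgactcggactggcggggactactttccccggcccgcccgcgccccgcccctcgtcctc

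The start regions differ in composition. The 94 bases before the outer Ctnnd1 start were 66.0% G and C with 10 CpG pairs, and the 250 bases before the inner start were 40% G and C with 3 CpG pairs. The outer Ctnnb1 window was 74.8% G and C with 35 CpG pairs, and the inner one, not printed, 74.4% with 43. For these windows, 6 motifs were searched on both strands of the 250 bases before each start. A CCAAT match was found in 5 of the 6 member windows and in 33.8% of all 32851 windows. A TATAAA match was found in 3 of the 6 (the inner windows of Ctnnd1 and Ctnnb1, and Gsk3b) and in 12.4% of all. Their positions from the start were -156, -120 and -117, the last on the opposite strand. No member window held TGANTCA (AP-1, in 6.75% of all windows), TGACGTCA (cyclic AMP response element, 1.55%), GGGANTTTC (a form of the NF-kB site, 0.941%) or CTTTGAT (TCF and LEF, 3.21%). The motifs were chosen after the sequences were seen. The 6 windows come from 4 genes, and those of Ctnnb1 overlap. These letter matches describe the windows, and nothing is read from the comparison with the shares of all windows. The deposited table gives 1 value per gene, so the use of the outer and the inner start was not analysed here.

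Genes around Ctnnd1 had smaller ratios, but Ctnnd1 was chosen for its ratio, so nothing is read from that contrast. Within 500 kb on either side, 28 other genes of the table were found and 13 of them reached 1 FPKM. Their log2 ratios ran from -0.17 to 0.59 with a median of 0.13. Of the 13, 0 were 2-fold apart, beside 0.25% of all genes higher and 0.313% lower, so nothing is read from that count. Btbd18, whose start lies 95 bases from that of Ctnnd1, was listed at 0 in both libraries. Beyond it, Selenoh, the gene of a selenoprotein, had 38.9 against 28.3 FPKM, and Tmx2, a thioredoxin-related membrane protein, had 9.26 against 7.09 (anti-CD40 first, here and in later pairs). Timm10, a mitochondrial import chaperone, was the highest of the 13, with 12.8 against 8.20 FPKM. Med19, a subunit of the Mediator complex, was the lowest, with 5.04 against 5.77. The GENCODE annotation also holds Gm28635, a gene model that spans from the Ctnnd1 region into Tmx2 on the same strand. Gm28635 has no row in the table that was analysed, and fragments from such a transcript cannot be told apart from those of Ctnnd1.

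**Figure D2:**
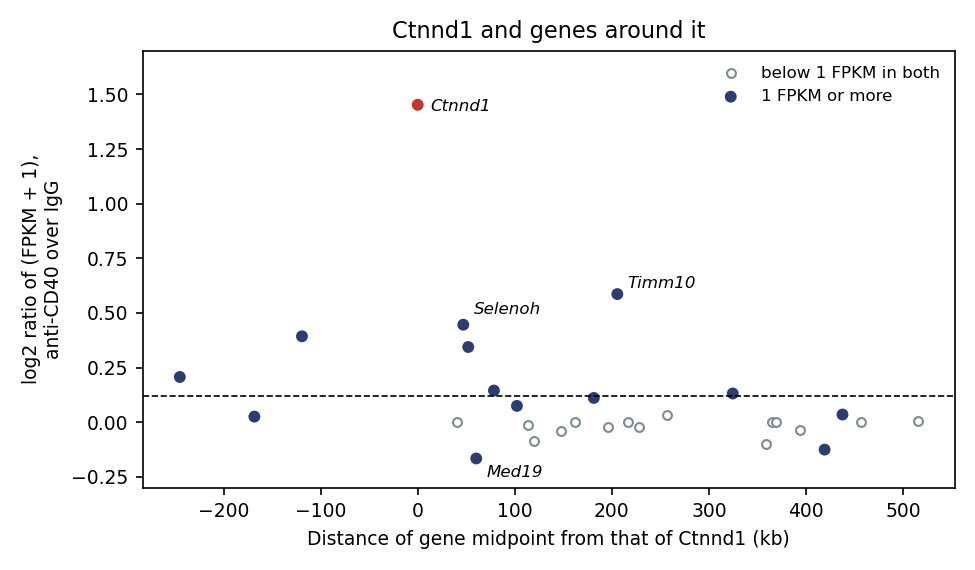
Log2 ratio of (FPKM + 1), anti-CD40 over IgG, of Ctnnd1 (red) and of the genes within 500 kb, against the distance of gene midpoints in kb. Filled points reached 1 FPKM in either library, open points did not, and the dashed line is the median of all genes at 0.12. The other filled points lie between -0.17 and 0.59, and Ctnnd1 at 1.45.

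Ctnnb1, which encodes beta-catenin (chromosome 9, 120933400 to 120960507), was the most abundant member. Its level was 85.3 FPKM (interval 80.9 to 89.9) after anti-CD40 and 60.02 FPKM (56.1 to 64.1) after IgG. The fold was 1.42, with an interval from 1.31 to 1.55, and its log2 ratio of 0.50 was above that of 95.2% of the 9591 genes. Ctnna1, the gene of alpha-E-catenin on chromosome 18, had 26.1 against 23.1 FPKM. Its fold of 1.13 (interval 0.973 to 1.31) was close to the median ratio of 1.11 over the 9101 genes. Ctnnb1 was thus outside counting error and Ctnna1 was not, when the median annotated transcript length is used; with the longest, the interval of Ctnna1 runs from 1.06 to 1.21.

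Jup, the gene of plakoglobin, a relative of beta-catenin that also serves desmosomes (chromosome 11, 100368856 to 100397839), stayed under 1 FPKM. It had 0.660 against 0.522 FPKM. The interval of its fold was 0.444 to 4.003 with the median transcript length of 742 bases. It was 0.714 to 2.25 with the shortest coding transcript and 0.773 to 2.06 with the longest. Each interval allows a difference in either direction, so a difference in Jup was not detectable with any of these lengths. Cdh1, the gene of E-cadherin (chromosome 8, 106603350 to 106670247), was listed at 0 in both libraries. An exact 0 in such a table can be a failed estimate, so no fold is given.

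Shares of the catenin transcripts are given as a description only, since Ctnnd1 was chosen for its difference. The levels of Ctnnb1, Ctnna1, Ctnnd1 and Jup summed to 119 FPKM in the anti-CD40 library and 85.7 FPKM in the IgG library. Ctnnb1 made up 71.5% and 70.0% of that sum. Ctnnd1 made up 6.06% with anti-CD40 and 2.34% with IgG, while Ctnna1 made up 21.9% and 27.0%. The level of Ctnna1 itself was not lower with anti-CD40 (26.1 against 23.1 FPKM), so its smaller share reflects the larger sum. Per length, Ctnnd1 stood at 8.48% of the Ctnnb1 level with anti-CD40 and 3.34% with IgG. These ratios lie within a library, so a scaling of the whole library leaves them as they are.

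**Figure D3:**
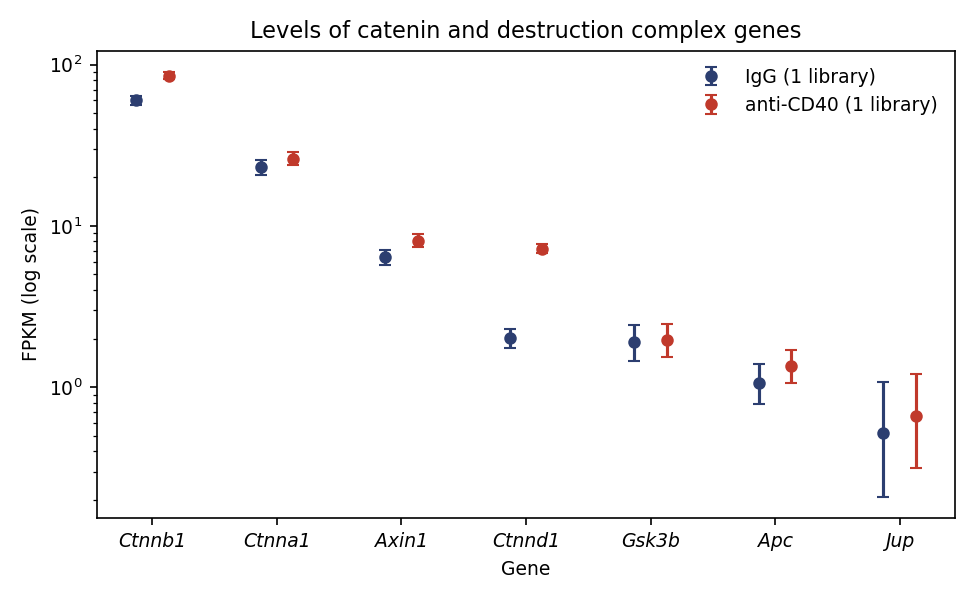
FPKM (log scale) of 7 members in the IgG library (blue) and the anti-CD40 library (red), 1 library each. Bars are 95% exact Poisson intervals on approximate fragments and cover counting error only. Cdh1, listed at 0 in both, has no point. The intervals of Ctnnd1 and Ctnnb1 are separate between the libraries, as are those of Axin1, and those of Ctnna1, Gsk3b, Apc and Jup overlap.

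The order of levels in the IgG library was Ctnnb1, Ctnna1, Axin1, Ctnnd1, Gsk3b, Apc and Jup. The neighbours Ctnnd1 (2.01 FPKM) and Gsk3b (1.90) did not differ there beyond counting error, since the interval of Gsk3b ran from 1.46 to 2.43. With anti-CD40 the same order held. There Ctnnd1 (7.23 FPKM) stood beside Axin1 (8.08, interval 7.36 to 8.84), whose interval overlaps that of Ctnnd1, and well above Gsk3b (1.96, interval 1.53 to 2.48).

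The 3 members of the destruction complex differed little. Axin1, the scaffold of the complex (chromosome 17, 26131217 to 26195811), stood at 8.08 against 6.39 FPKM, a fold of 1.26 with an interval from 1.10 to 1.46. Apc, a scaffold that binds beta-catenin and lies on chromosome 18, had 1.36 against 1.05 FPKM. The interval of its 1.29-fold difference, 0.878 to 1.85, includes no difference with the median transcript length, but runs from 1.09 to 1.52 with the longest. Gsk3b, a kinase that marks beta-catenin for degradation (chromosome 16, 38089001 to 38246084), had 1.96 against 1.90 FPKM, a fold of 1.03 with an interval from 0.716 to 1.46. Gsk3b had the lowest ratio of the 6 members at 1 FPKM or more. Its log2 ratio of 0.03 turned to -0.088 after centring on the median and to -0.047 after upper-quartile scaling, whereas Ctnnd1, Ctnnb1, Ctnna1, Axin1, Apc and Jup were above 0 under each scaling tried.

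In the wider list of 19 destruction complex genes, 16 reached 1 FPKM. All 16 had a log2 ratio above 0, against 67.8% of all genes, and 12 exceeded the median of all genes. Their median was 0.25 beside 0.12. Btrc and the deubiquitinase gene Usp34 (1.26 against 0.965 FPKM) reached 1 FPKM only with anti-CD40, so they had to be higher, and no weight is put on these counts. On the log2(FPKM + 1) scale none was 2-fold apart, and 1 was at least 1.5-fold higher, a level that 2.68% of all genes reached. That gene was Btrc, which encodes the beta-TrCP ubiquitin ligase subunit that recognises phosphorylated beta-catenin and also the NF-kB inhibitor. Btrc had 1.85 against 0.821 FPKM, a fold of 2.26 with an interval from 1.504 to 3.52. Its close relative Fbxw11 had 6.51 against 4.75 FPKM, with an interval of the fold from 1.19 to 1.58.

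Kinases of the complex ranged from nearly level to 1.48-fold as ratios of FPKM. Gsk3a, the second glycogen synthase kinase gene, was far more abundant than Gsk3b and had 32.6 against 22.02 FPKM. Its fold of 1.48 had an interval from 1.36 to 1.61, which overlaps that of Gsk3b (0.716 to 1.46). With the longest transcripts the interval of Gsk3b runs from 0.879 to 1.21 and does not overlap that of Gsk3a. Gsk3b stood at 6.02% of the Gsk3a level with anti-CD40 and 8.62% with IgG. Of the casein kinase 1 genes, Csnk1a1 had 15.2 against 12.2 FPKM and Csnk1e had 8.51 against 8.42. The intervals of their folds, 1.11 to 1.40 and 0.760 to 1.33, overlap. The phosphatase scaffold Ppp2r1a was nearly level, at 134 against 129 FPKM. Axin2, a scaffold that is itself a widely used target of beta-catenin, was listed at 0 in both libraries.

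**Figure D4:**
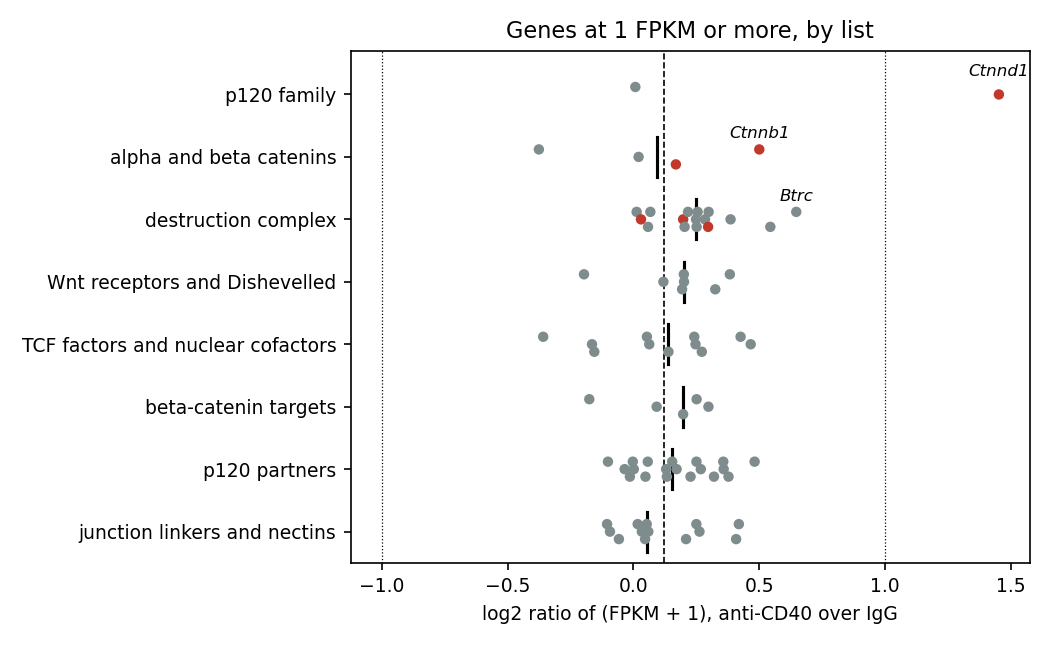
Log2 ratio of (FPKM + 1), anti-CD40 over IgG, of genes that reached 1 FPKM, in 8 lists. Red points are members, grey points other genes, black bars the list median (none for the p120 family, with 2 genes), the dashed line the median of all genes at 0.12, and dotted lines 2-fold. On this scale Ctnnd1 is the 1 point beyond 2-fold and Btrc, at 0.65, the next highest.

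Among the relatives of p120 catenin, Pkp4 alone was high enough for a comparison. Of 7 genes of the family, Ctnnd1 and Pkp4 reached 1 FPKM. Pkp4, the gene of plakophilin 4, had 7.84 against 7.79 FPKM, with an interval of the fold from 0.869 to 1.17. Arvcf had 0.495 against 0.306 FPKM, Ctnnd2, Pkp2 and Pkp3 were under 0.2 in both, and Pkp1 was listed at 0. Ctnnd1 made up 45.9% of the summed family level with anti-CD40 and 19.3% with IgG, while Pkp4 made up 49.7% and 74.9%. Since Ctnnd1 was chosen for its difference and Pkp4 was nearly level, these shares restate that difference and add nothing to it. Among the other genes with catenin in their names, Ctnnbl1, a nuclear protein linked to splicing, was lower with anti-CD40, at 16.7 against 21.9 FPKM. Ctnnbip1, an inhibitor of the contact between beta-catenin and TCF factors, was at 6.82 against 6.71.

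The listed cadherin genes had values at or near 0. Of 19 cadherin genes, 0 reached 1 FPKM and 14 were listed at 0 in both libraries. The highest was Cdh24, at 0.149 against 0.173 FPKM. An exact 0 can be a failed estimate and is not read as absence. Of 13 desmosome genes, 0 reached 1 FPKM and Jup was the highest. The nectin system, another family of adhesion receptors, was present at low levels, with Nectin2 at 6.88 against 6.60 FPKM and Nectin4 at 2.09 against 1.60. Of 21 genes that link junctions to actin or belong to the nectin system, 13 reached 1 FPKM, with a median log2 ratio of 0.05. On the log2(FPKM + 1) scale 0 of them were 1.5-fold apart, beside 2.68% of all genes higher and 2.15% lower. Nothing is read from that 0. Vinculin (Vcl), which binds alpha-catenin under tension, had 2.09 against 1.33 FPKM, or 1.57-fold as a ratio of FPKM, and Lima1, another actin binding partner, had 5.64 against 3.96. Actn4 was slightly lower, at 49.8 against 53.2.

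Partners of p120 catenin spread on both sides of the median of all genes. Of 24 listed, 19 reached 1 FPKM, and 12 of these exceeded the median of all genes. On the log2(FPKM + 1) scale 0 of the 19 were 1.5-fold apart, beside 2.68% of all genes higher and 2.15% lower. Nothing is read from that 0. The small GTPase genes Rac1 and Cdc42 had 145 against 148 and 146 against 114 FPKM. Among kinases and phosphatases that act on p120 catenin or on junctions, Src had 5.98 against 4.45 FPKM, Fer 2.34 against 1.57 and the receptor phosphatase Ptprj 19.2 against 13.5. The interval of the Ptprj fold ran from 1.33 to 1.53. Other listed kinases and phosphatases had smaller folds, among them Ptpn6 (1.10, 119 against 109 FPKM) and Lyn (1.18, 20.3 against 17.2). Zbtb33, which encodes the transcription factor Kaiso that p120 catenin binds, stayed under 1 FPKM with 0.954 against 0.871.

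Upstream of beta-catenin, most Wnt genes were under 1 FPKM. Of 21 genes for Wnt ligands and their secretion, 13 were listed at 0 in both libraries. The 2 that reached 1 FPKM serve secretion, namely Wls (8.21 against 7.37) and Porcn (1.36 against 1.03). Of 25 receptor and Dishevelled genes, 7 reached 1 FPKM with a median log2 ratio of 0.20. The coreceptor genes Lrp5 and Lrp6 had 2.58 against 1.74 and 1.73 against 1.18 FPKM, and Fzd7 was the 1 Frizzled gene at 1 FPKM or more, with 1.59 against 1.25. Dvl1 was lower with anti-CD40, at 12.9 against 15.0 FPKM.

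Among TCF factors and nuclear cofactors, 11 of 17 genes reached 1 FPKM, of which Bcl9 and Cdc73 did so only with anti-CD40. Tcf7l2 was the highest of the TCF and LEF genes, at 0.857 against 0.784 FPKM, and Lef1 and Tcf7l1 were listed at 0 in both. The corepressor Tle1 had 6.68 against 4.56 FPKM, while Tle5, a short member of that family, had 362 against 465. The cofactor Bcl9 had 1.23 against 0.657 FPKM. The interval of its fold ran from 0.684 to 5.30 with the median transcript length of 566 bases. With the shortest coding transcript, of 4652 bases, it ran from 1.34 to 2.60.

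Most listed targets of beta-catenin were under 1 FPKM. Of 24 listed, 23 were in the table and 5 reached 1 FPKM, while 10, among them Axin2, Lgr5 and Nkd1, were listed at 0 in both libraries. Such a 0 is not read as absence. The 5 had a median log2 ratio of 0.20. On the log2(FPKM + 1) scale 0 were 1.5-fold apart, beside 2.68% of all genes higher and 2.15% lower. Nothing is read from that 0. Myc had 6.25 against 5.09 FPKM and Ppard 4.82 against 3.73, but the cyclin gene Ccnd1 was lower at 25.9 against 29.3, with an interval of the fold from 0.805 to 0.966. These 5 genes are controlled by many signals besides beta-catenin.

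Taking the 11 pathway lists and the members as 1 set, 186 genes were in the table, 79 reached 1 FPKM and 57 were listed at 0 in both libraries. Of the 79, 4 reached 1 FPKM only with anti-CD40 (Btrc, Usp34, Bcl9 and Cdc73) and 0 only with IgG, and Ctnnd1 was chosen for its difference, so no weight is put on counts over them. On the log2(FPKM + 1) scale Ctnnd1 was the 1 gene at least 2-fold higher, 0 were 2-fold lower, and the range ran from -0.38 (Ctnnbl1) to 1.45. At 1.5-fold on that scale, 2 genes were higher (Ctnnd1 and Btrc) and 0 lower, against 2.68% and 2.15% of all genes. As ratios of FPKM, Btrc (2.26) also passed 2-fold, and Bcl9 (1.87) and Vcl (1.57) passed 1.5-fold.

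The genes whose log2 ratio lay nearest to that of Ctnnd1, among genes at 5 FPKM or more without a model name, were Dynlt1f, Il1b, Gdf15, Snhg6 and Dusp2. With 2 libraries, likeness means only a similar ratio. Dynlt1f, of a family of dynein light chains with close copies, had 25.8 against 9.42 FPKM, and Il1b, the gene of interleukin-1 beta, had 13.6 against 4.0. Gdf15, a secreted stress-response factor, had 79.7 against 34.1 FPKM.

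Macrophage markers were high in both libraries and markers of other cells were low. All 13 macrophage markers exceeded 1 FPKM, and 8 had a log2 ratio above 0 and 5 below. Csf1r, the receptor for macrophage colony-stimulating factor, was at 333 in both. Cd14, a coreceptor for lipopolysaccharide, had 333 against 244 FPKM, and the complement gene C1qb had 1955 against 2623. Of 15 epithelial markers, 0 reached 1 FPKM, 9 were listed at 0 in both libraries, including Cdh1, Epcam and Krt8, and the sums were 0.574 against 0.752 FPKM. Of 14 stromal and endothelial markers, 0 reached 1 FPKM, and the sums were 2.28 against 1.37 FPKM. Within them Col1a1 had 0.406 against 0.0319 FPKM, a difference in the direction of that of Ctnnd1 at a far lower level, and its part in the result was not tested. With the median transcript length Col1a1 rested on about 4 and 0 fragments, and the interval of its fold ran from 0.598 without an upper bound. With the longest it rested on 49 and 4, with an interval from 4.07 to 42.3. The dendritic cell, granulocyte and lymphocyte lists each had 1 gene at 1 FPKM or more, namely Cd24a (3.51 against 2.44), S100a8 (1.82 against 1.11) and Cd4 (3.94 against 3.04). Their sums were 3.92 against 2.80, 1.90 against 1.25 and 5.18 against 4.01 FPKM. In bulk RNA, fewer cells of a type and less RNA per cell cannot be told apart.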

How the data were processed

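The authors deposited 1 table, whose 2 columns hold the expression of each gene in the 2 libraries and whose header names no unit. The values were read as FPKM because the submitters' processing notes name StringTie, beside HISAT2 2.1.0 and mm10, and because the deposited columns sum to 529104 and 547362. RNA (1.3 ug per library) went into a TruSeq preparation, per the labels' protocols. For the annotation, the strand setting and filters, the sources used here give nothing. Columns were assigned by name, and 0 were left unused.

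Depth came from genes with a single transcript and exon whose length was the same in GENCODE (mouse release 21) and RefSeq. FPKM times length was a whole multiple of half-base (0.5) steps, within 0.05 steps, for 88% of 25 low genes with anti-CD40 and 100% of 10 with IgG. A fragment was taken as 300 bases, which gives 20.5 and 18.6 fragments per FPKM and kilobase of the median GENCODE transcript length. For Ctnnb1 and Ctnna1 that median is 795 and 764 bases, against 3623 and 3733 for the longest transcript, so their intervals are wide.

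Genes entered counts at 1 FPKM or more in either library. The design held a single library per group and allowed no test. The members and lists were chosen with earlier results of these data known. Named genes are the members, up to 4 of each list with the highest and the lowest ratio, the 5 nearest to Ctnnd1 in ratio at 5 FPKM or more, and neighbours of members; other genes, and the motifs, were chosen after their values or sequences were seen. Calling and intervals were tried on simulated data with counting noise only. Calling used the same depth per FPKM for every gene whatever its length, and intervals a single ratio at equal depths. The spread between cultures was not simulated. Python 3.11.15, pandas 2.3.3 and scipy 1.17.1 were used.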

Additional observations from a re-analysis of the deposited data

How the results depend on the processing

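Ctnnd1 stayed above 0 on the log2 scale under each of the 6 alternatives tried, and at least 2-fold higher under 5 of them. A pseudocount cannot change the sign of a ratio, and Ctnnd1 was chosen at more than 3-fold, so no support is read from this. The log2 ratio of Ctnnd1 was 1.80 with a pseudocount of 0.1 FPKM, 0.80 with 5 FPKM and 1.652 with both libraries rescaled to TPM-like sums. With the shortest coding transcript the interval of its fold ran from 3.07 to 4.25. Pathway genes and members at least 2-fold higher numbered 2 with a pseudocount of 0.1 (Ctnnd1 and Btrc), 0 with a pseudocount of 5 and 2 at a threshold of 1.5-fold, an alternative chosen after seeing the data. Over all genes, the counts higher and lower were 88 and 75 with a pseudocount of 0.1, 4 and 10 with 5, 13 and 54 after centring on the median, 61 and 41 with TPM-like sums, 16 and 48 after upper-quartile scaling, 14 and 19 with a filter at 5 FPKM (which tests fewer genes), and 257 and 206 at 1.5-fold. Gsk3b turned to -0.088 after centring and -0.047 after upper-quartile scaling. With the longest transcript the lower bound of the fold rose above 1 for Ctnna1 (1.06) and Apc (1.09), and with the shortest coding transcript it fell under 1 for Axin1 (0.885), since the length sets the number of fragments. No paired analysis was possible because each group held 1 library. With the median transcript length, depth limits Jup, Apc and Gsk3b most, at 7 to 73 fragments per library. With the longest, fragments were 43 and 31 for Jup, 357 and 251 for Apc, and 334 and 293 for Gsk3b (anti-CD40 first).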
